A study of Mus musculus with 6 samples.

Results

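The genes described here carry out glycolysis, gluconeogenesis, glycogen storage and the pentose phosphate pathway in mouse liver, with the kinases that gate the entry of pyruvate into mitochondria. They were chosen by name, as a list of 37 symbols. A gene was measured where a probe set of the array named it alone, and the probe set with the highest mean over all arrays was used. This left 31 of the 37 genes, out of 22180 genes measured in all. Aldoa and Tkt shared their probe sets with another gene's name, and they were not analysed here. Gpi1, Pfkfb1, Eno1 and G6pdx were not analysed here either.

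The samples were livers of 6 male C57BL/6 mice kept under specific pathogen free conditions, with 1 Affymetrix array per mouse. The control livers, of mice 13, 21 and 6, expressed green fluorescent protein (GFP). The other livers, of mice 26, 28 and 31, expressed Sonic Hedgehog (SHH), a secreted signalling protein, and the study asked about its effect on liver fibrosis and on genes tied to fibrosis. The design text names a hydrodynamics-based transfection, in which DNA is injected fast and in a large volume so that liver cells take it up. It does not give the promoter, the age of the mice or the time since injection, and the labels do not give feeding state or hour of killing. Each array is a separate mouse, so the spread between arrays holds the spread between animals. Where 3 values are given for a group, they follow the order of mice 13, 21 and 6 for GFP, and 26, 28 and 31 for SHH.

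The liver is the main organ that both stores and releases glucose. After a meal, hepatocytes take up glucose, trap it as glucose 6-phosphate and send it to glycogen, to pyruvate or to the pentose phosphate pathway. In fasting they release glucose from glycogen and build it anew from lactate, glycerol and amino acids. Several steps have a hepatocyte isozyme and a second form used by immune, muscle or dividing cells, so that a whole-liver signal can mix cell types. Fewer cells of a type and less RNA per cell cannot be told apart in such data.

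The array medians lay between 4.32 and 4.40 on the log2 scale, and pairwise correlations over probe sets were 0.971 to 0.981 between groups and 0.975 to 0.980 within them. Shh was 3.43 to 3.86 in GFP livers and 4.28 to 4.63 in SHH livers, the direction the labels give (limma, adjusted p = 0.356). Its signal was dim, at the 43.7th percentile on the arrays, and below the array medians in GFP livers. Of 10 hepatocyte markers 9 were measured, and their mean shift from the GFP mean ran from -0.07 to 0.06 in GFP livers and from -0.03 to 0.17 in SHH livers. Some livers also carried more signal of other tissues or cell types. Skeletal muscle genes were high in SHH 28 alone, and macrophage genes were highest in SHH 31.

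Most glucose metabolism genes differed little between the groups, 19 of the 31 measured by less than 0.2 on the log2 scale either way. Of the 31, 15 had higher and 16 lower means in SHH livers, and their median difference was -0.05 on the log2 scale, against -0.03 over all genes. The largest difference upward was 0.52, for the hexokinase Hk2, and the largest downward was -0.41, for the glucose transporter Slc2a2. None passed the Benjamini-Hochberg threshold of 0.05 over all genes in limma, where the smallest adjusted p of a member was 0.612 and the share of all genes called was 0%. At an unadjusted p under 0.05, 1 member was higher (3.23% of members, against 3.33% of all genes) and 1 was lower (3.23%, against 4.01% of all genes). These shares lie near the background, so the counts are no result about the members. Every SHH value lay above every GFP value for 0 members, against 5.26% of all genes, and below for 2 members (6.45%), against 7.25% of all genes.

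Which mice entered the fit moved these counts. At an unadjusted p under 0.05, the higher members numbered 0 without GFP 13, GFP 6 or SHH 31, where 2.73%, 2.87% and 2.82% of all genes were higher. They numbered 1 without SHH 28 (3.16% of all genes) and 2 without GFP 21 (2.87%) or SHH 26. The lower members numbered 0 without GFP 6, SHH 28 or SHH 31, where 3.31%, 3.44% and 4.22% of all genes were lower, and 2 without GFP 13 (2.85% of all genes) or GFP 21 (4.21%). Without SHH 26 they numbered 5, namely Slc2a2, Gys2, Ugp2, Pdk1 and Pdk2, where 4% of all genes were lower, and the 2 higher ones were Hk2 and Pkm, where 4.08% of all genes were higher. Even then no member passed over all genes, with adjusted p of 0.237 to 0.509 in limma for these 7. SHH 26 was the SHH liver closest to the GFP mean for each of the 7.

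The precision of these null values differed by gene. Of the 31 genes, 20 ranked above the 90th percentile of signals on their arrays and 0 below the median. The standard errors ran from 0.11 to 0.54. For 19 genes the 95% interval of the difference lay wholly within a 1.5-fold change either way, as it did for 72.2% of all genes. The intervals of 29 of the 31 members lay within a 2-fold change, as did those of 96.1% of all genes. Among the members, only the intervals of Pfkfb3 and Pkm reached past it. At both limits the share inside was smaller for the members than for all genes. Both fold limits were picked after the values were seen.

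**Figure D1:**
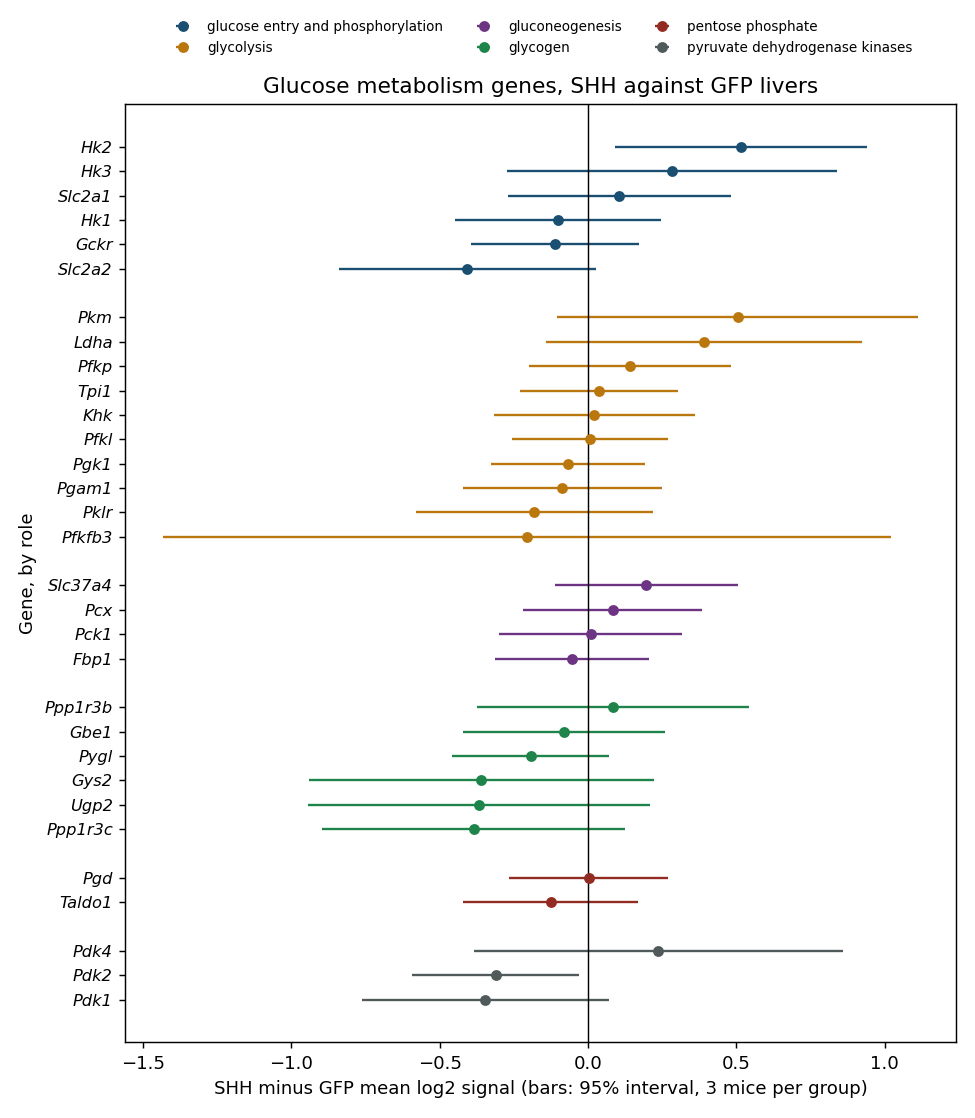
Difference of mean log2 signal, SHH minus GFP, for the 31 measured genes, coloured by role, with points for the difference and bars for the 95% interval from the limma fit over 3 mice per group. The intervals of Hk2 and Pdk2 alone do not cross 0 before adjustment over all genes, and that of Pfkfb3 (-1.43 to 1.02) is the widest.

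Glucose enters hepatocytes through the transporter encoded by Slc2a2, and Slc2a1 encodes the transporter of most other cells. Slc2a2 signal was 10.91, 10.77 and 11.02 in the control livers, against 10.93, 10.28 and 10.27 with SHH. SHH 28 and SHH 31 lay below all GFP livers, while SHH 26 lay among them. The difference was -0.41 (SE 0.19, 1.33-fold lower, 95% interval -0.84 to 0.03; limma, adjusted p = 0.702), and without SHH 26 it was -0.63 (adjusted p = 0.239). Slc2a1 differed by 0.11, with 6.46 to 6.80 in GFP livers and 6.43 to 6.95 in SHH livers.

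Hexokinases trap glucose inside the cell by phosphorylation. Hk2 encodes the form that dominates in muscle and growing cells. Its signal was 4.39, 4.81 and 4.53 in the control livers, against 4.81, 5.03 and 5.44 with SHH. The SHH livers were the higher ones apart from SHH 26, which was level with GFP 21. The difference of 0.52 (SE 0.19, 1.43-fold, 95% interval 0.09 to 0.94) had the smallest p of the members, 0.0226 before and 0.612 after adjustment (limma). Leaving out each mouse in turn gave 0.34 to 0.66, the lowest without SHH 31.

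The other hexokinase genes did not follow Hk2 as a group. Hk3, the form of myeloid cells, was 4.73, 4.84 and 4.67 in the control livers, against 4.73, 4.69 and 5.67 with SHH. Only SHH 31 stood above the GFP range, and the difference of 0.28 became -0.04 without that mouse. Hk1, the form found in most tissues, differed by -0.10 (95% interval -0.45 to 0.25). Gckr encodes the regulatory protein that holds glucokinase in the hepatocyte nucleus, and it differed by -0.11 (95% interval -0.39 to 0.17).

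In glycolysis proper, the enzymes of the shared trunk had differences near 0. Tpi1 (triose phosphate isomerase) differed by 0.04, Pgk1 (phosphoglycerate kinase) by -0.07 and Pgam1 (phosphoglycerate mutase) by -0.09. The 95% intervals were -0.23 to 0.30, -0.33 to 0.19 and -0.42 to 0.25. A second, dimmer probe set of Pgam1 differed by 0.24, the opposite way. Pfkl, the liver form of phosphofructokinase, differed by 0.0054, with 6.14 to 6.25 in GFP livers and 6.18 to 6.28 in SHH livers. Khk, the ketohexokinase that lets fructose in, differed by 0.02 (95% interval -0.32 to 0.36). The trunk enzyme Gapdh, from a list of further glycolytic genes, differed by -0.08.

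The last steps of the pathway were less even. Pkm encodes the pyruvate kinase of non-hepatocyte and dividing cells, and its signal was 6.04, 5.81 and 6.02 in the control livers, against 5.88, 6.39 and 7.11 with SHH. SHH 31 was highest, SHH 28 next, and SHH 26 lay within the GFP range. The difference of 0.50 (SE 0.27, 1.42-fold, 95% interval -0.10 to 1.11; limma, adjusted p = 0.746) became 0.18 without SHH 31 and 0.79 without SHH 26. Ldha, the lactate dehydrogenase subunit that favours lactate, was 6.65, 7.47 and 6.82 in the control livers, against 7.07, 7.69 and 7.35 with SHH. GFP 21 lay above SHH 26 and SHH 31, so the groups overlapped. The difference was 0.39 (95% interval -0.14 to 0.92; adjusted p = 0.785), 0.23 without GFP 13 or SHH 28, and 0.64 without GFP 21.

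Pklr, the pyruvate kinase of hepatocytes, differed by -0.18 (95% interval -0.58 to 0.22), and Pfkp, the platelet form of phosphofructokinase, by 0.14 (95% interval -0.20 to 0.48). The hepatocyte form thus had the lower and the second form the higher value for glucose transport (Slc2a2 -0.41, Slc2a1 0.11), pyruvate kinase (-0.18 and 0.50) and glycogen phosphorylase (Pygl -0.19, Pygb 0.24). Phosphofructokinase gave 0.0054 for Pfkl and 0.14 for Pfkp. Glycogen synthase gave -0.36 for the liver form Gys2 and -0.02 for the muscle form Gys1. The order was the opposite for the glycogen phosphatase subunits (Ppp1r3b 0.08, Ppp1r3c -0.39). Kinases of pyruvate dehydrogenase gave 0.24 for Pdk4 and -0.35 for Pdk1. Neither is called the liver form here, as Pdk4 was the dimmer (64.2th percentile of signals, against 90.8th for Pdk1). The Pdk4 difference became -0.13 without SHH 28. None of these pairs was tested for a difference between its forms, and the 95% intervals overlap within each of them.

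Pfkfb3 encodes a bifunctional enzyme that makes the allosteric activator of phosphofructokinase, and it varied more than any other member. Its signal was 7.33, 4.77 and 6.89 in the control livers, against 6.14, 6.15 and 6.09 with SHH. The SHH livers sat together between GFP 21 below and the other 2 GFP livers above. The SD was 1.37 in GFP livers and 0.03 in SHH livers (n = 3 each). The difference of -0.21 (95% interval -1.43 to 1.02) became -0.98 without GFP 21 (limma, unadjusted p = 4.08e-04, adjusted p = 0.377). It was 0.30 without GFP 13 and 0.07 without GFP 6, so its sign rests on which control mice are kept.

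Among the members, the gluconeogenic enzymes Pck1, Pcx and Fbp1 had differences near 0 too. Pck1 encodes the cytosolic phosphoenolpyruvate carboxykinase, a classic fasting gene induced by glucagon. Its signal was 12.30, 11.97 and 11.97 in the control livers, against 12.03, 12.08 and 12.16 with SHH. The SHH values lay inside the GFP range, and the difference was 0.0085 (95% interval -0.30 to 0.32). Pcx, the pyruvate carboxylase that starts the route from pyruvate, was 9.23, 8.98 and 9.02 in the control livers, against 9.04, 9.29 and 9.16 with SHH. The groups overlapped, with a difference of 0.08 (95% interval -0.22 to 0.38). Fbp1, the fructose bisphosphatase that opposes phosphofructokinase, was 11.14, 11.20 and 11.10 in the control livers, against 11.04, 11.10 and 11.14 with SHH. These groups overlapped too, and the difference was -0.05 (95% interval -0.31 to 0.21).

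Slc37a4 encodes the carrier that brings glucose 6-phosphate into the endoplasmic reticulum, where its phosphate is removed. It was 9.07, 8.83 and 8.94 in the control livers, against 9.18, 9.28 and 8.97 with SHH. SHH 26 and SHH 28 lay above the GFP livers and SHH 31 among them, a difference of 0.20 (95% interval -0.11 to 0.50; limma, adjusted p = 0.814). Its partner, the glucose 6-phosphatase gene G6pc, is no member of the list and pointed the other way. G6pc was 11.32, 10.70 and 10.84 in the control livers, against 10.70, 10.05 and 10.72 with SHH. SHH 28 was the lowest, and the other SHH livers were close to GFP 21. The difference of -0.47 (95% interval -0.98 to 0.04) had an adjusted p of 0.707 in limma.

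Glycogen genes had the lower means in SHH livers for 5 of 6 members, with a median difference of -0.28, against -0.03 over all genes, where 56.2% of means were lower. The mean shift of the 6 genes from the GFP mean was 0.03, 0.05 and -0.09 in the control livers, against 0.06, -0.28 and -0.43 with SHH. SHH 26 was thus like the controls, and the median difference became -0.14 without SHH 31. None of the 6 passed over all genes in limma (adjusted p from 0.773).

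Gys2, the liver glycogen synthase, was 10.84, 10.57 and 10.68 in the control livers, against 10.96, 9.81 and 10.24 with SHH. SHH 26 was the highest of all livers, and SHH 28 the lowest. Ugp2, which makes the UDP-glucose that glycogen synthase uses, was 10.34, 10.53 and 10.38 in the control livers, against 10.69, 9.88 and 9.56 with SHH. Again SHH 26 was the highest and the other SHH livers the lowest. The differences were -0.36 (95% interval -0.94 to 0.22) for Gys2 and -0.37 (95% interval -0.94 to 0.21) for Ugp2. Without SHH 26 they were -0.67 and -0.69 (limma, adjusted p = 0.349 and 0.237). Gys2 became -0.10 without SHH 28 and Ugp2 -0.13 without SHH 31.

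Pygl, the liver phosphorylase that releases glucose from glycogen, gave the tightest values of this group. It was 10.26, 10.27 and 10.23 in the control livers, against 10.14, 10.06 and 9.97 with SHH. The groups did not overlap, but the step was small, -0.19 (SE 0.12, 1.14-fold lower; limma, adjusted p = 0.785). Ppp1r3c, a subunit that brings protein phosphatase to glycogen, differed by -0.39 (95% interval -0.90 to 0.12), with 7.54, 8.41 and 7.96 in the control livers, against 7.76, 7.69 and 7.29 with SHH. GFP 21 was the highest, and the difference was -0.17 without it. The related subunit Ppp1r3b differed by 0.08, and its second, dimmer probe set by -0.27. Gbe1, the branching enzyme, differed by -0.08.

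The pentose phosphate pathway supplies NADPH and ribose, and only 2 of its 4 listed genes were measured. Pgd, the phosphogluconate dehydrogenase of the oxidative part, was 7.49, 7.45 and 7.62 in the control livers, against 7.47, 7.55 and 7.55 with SHH. All SHH values lay inside the GFP range, and the difference was 0.0024 (95% interval -0.27 to 0.27). Taldo1, the transaldolase of the non-oxidative part, was 8.22, 7.90 and 8.13 in the control livers, against 7.8913, 7.9818 and 8.0002 with SHH. GFP 21 lay among the SHH livers, and the difference was -0.13 (95% interval -0.42 to 0.17). Of 9 further genes of the pathway, 7 had higher and 2 lower means (22.2% lower, against 56.2% of all genes). At an unadjusted p under 0.05 in limma, 0 were called, against 3.33% of all genes upward and 4.01% downward.

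Pyruvate dehydrogenase kinases shut the complex that turns pyruvate into acetyl-CoA. Pdk2, the form expressed in most tissues, was 7.94, 8.02 and 8.03 in the control livers, against 7.83, 7.57 and 7.66 with SHH. All SHH livers lay below all GFP livers. The difference of -0.31 (SE 0.12, 1.24-fold lower, 95% interval -0.59 to -0.03) had the second smallest p of the members, 0.0339 before and 0.658 after adjustment (limma). It ran from -0.38 to -0.25 as each mouse was left out.

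Pdk1, a kinase induced by low oxygen, was 8.21, 7.74 and 8.04 in the control livers, against 7.98, 7.43 and 7.54 with SHH. SHH 26 lay among the GFP livers, and the difference was -0.35 (95% interval -0.76 to 0.07; limma, adjusted p = 0.745). Its second probe set was far dimmer, at the 9.06th percentile of signals, and differed by 0.04. Pdk4, the kinase induced in fasting, was 5.12, 5.07 and 4.94 in the control livers, against 4.92, 6.02 and 4.90 with SHH. Only SHH 28 was high, and the difference of 0.24 became -0.13 without it.

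**Figure D2:**
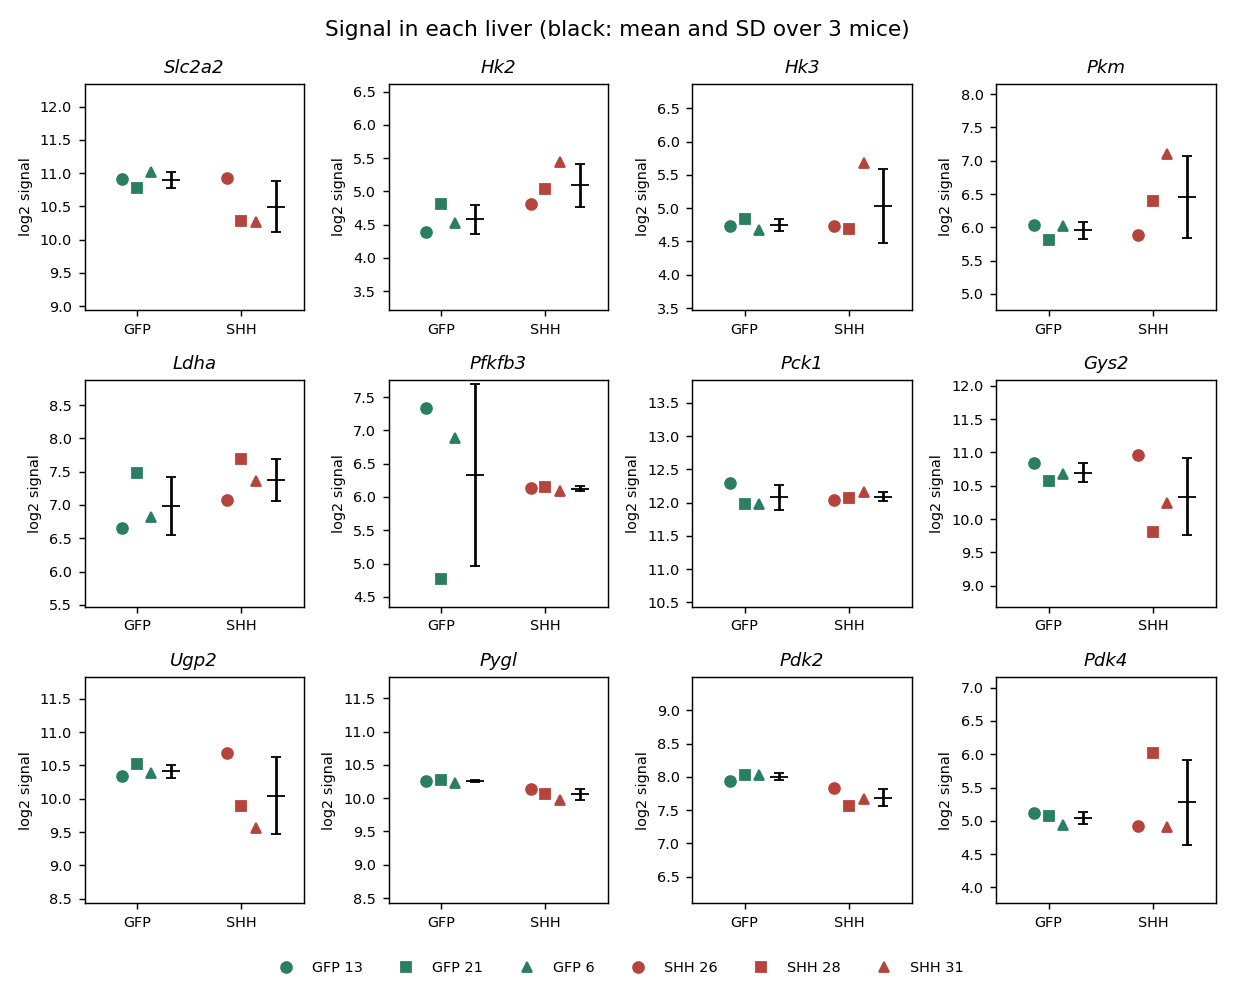
Log2 signal of 12 genes in each of the 6 livers, with symbols for the mice, black bars for the mean and SD over 3 mice, and axes of equal span. Pygl and Pdk2 are the only ones whose groups do not overlap; Hk3 and Pkm are highest in SHH 31, Pdk4 is high in SHH 28 alone (6.02), and Pfkfb3 is low in GFP 21 (4.77).

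By role group, median differences were 0.0027 for glucose entry and phosphorylation, 0.01 for glycolysis and 0.05 for gluconeogenesis. They were -0.28 for glycogen (6 genes), -0.06 for the pentose phosphate genes (2 genes) and -0.31 for the kinases (3 genes, the value of Pdk2). Mean shifts of the SHH livers were -0.03, 0.11 and 0.09 for glycolysis, and -0.12 to 0.09 in GFP livers. For gluconeogenesis they were 0.01, 0.12 and 0.04 with SHH, and -0.07 to 0.12 in GFP livers. The kinases had -0.10, -0.01 and -0.31 with SHH, and -0.07 to 0.08 in GFP livers. No test compares the role groups, whose genes share the same 6 arrays.

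Other cell types moved with some of these values. The 12 macrophage and monocyte markers all had higher means in SHH livers, with a summed linear signal of 1054 to 1796 in GFP livers and 1715 to 3353 in SHH livers. As a mean shift this came to 0.35, 0.60 and 1.28 with SHH, and to 0.39 in GFP 6. SHH 31, where it was largest, was also the liver with the highest Hk2, Hk3, Pfkp and Pkm. Among the controls, GFP 6 had the highest Pfkp (4.95) but the lowest Hk3 (4.67). Its Hk2 (4.53) and Pkm (6.02) lay between those of the other GFP livers. The 10 neutrophil markers also all had higher means and mean shifts of 0.20, 1.20 and 1.11 with SHH. SHH 26, with the smallest shift, was also the only SHH liver not below the controls for Slc2a2, Gys2 and Ugp2. It lay among them for Slc2a2 and above them all for Gys2 and Ugp2. The summed neutrophil signal was 128 to 146 in GFP livers and 157 to 327 in SHH livers. Higher means were found for 7 of 8 T and natural killer cell markers, 7 of 7 of B and plasma cells, 9 of 10 of stellate cells and fibroblasts, and 1 of 8 of endothelial cells. Hepatocyte markers also had higher means for 8 of 9, against 9723 of all 22180 genes. The T and natural killer cell markers shifted by 0.38, 0.16 and 0.82 with SHH. The part of these cells in the values of Hk2, Hk3, Pkm, Slc2a2, Gys2 and Ugp2 was not tested.

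Skeletal muscle is rich in Pdk4, Hk2 and Ldha. Of 6 muscle markers 5 had higher means, and their linear signal summed to 138 to 142 in GFP livers and to 123, 426 and 142 with SHH. In SHH 28, Acta1 (skeletal actin) was 6.90 against 4.72 to 5.23 in the other livers, Mb (myoglobin) 6.86 against 5.11 to 5.30, and Tnnt3 (troponin T) 6.75 against 4.49 to 5.12. SHH 28 also had the highest Pdk4 and Ldha, but other genes did not follow. Hk2 was highest in SHH 31 (5.44, against 5.03 in SHH 28). Ldha was next highest in GFP 21 (7.47, against 7.69 in SHH 28), a liver without raised muscle markers. Pgam2, the muscle form of phosphoglycerate mutase, was 3.79 in SHH 28, below the GFP livers (3.86 to 4.08). The part of muscle RNA in the Pdk4 value was not tested. Without SHH 28 the difference was 0.55 for Hk2 and 0.23 for Ldha.

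**Figure D3:**
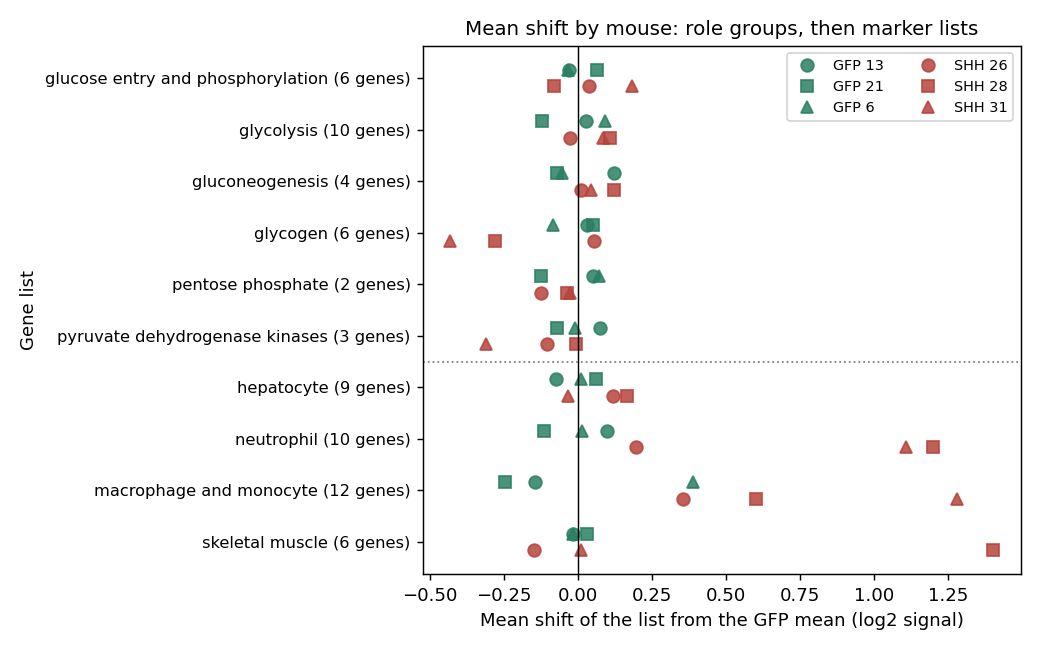
Mean shift of each gene list from its GFP mean (log2 signal), 1 symbol per mouse, for the 6 role groups above the dotted line and 4 marker lists below it. Glycogen genes are low in SHH 28 (-0.28) and SHH 31 (-0.43) and not in SHH 26, neutrophil markers are high in the same 2 livers, and muscle markers are high in SHH 28 alone (1.40).

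Further genes of glucose metabolism were read from lists of 109 genes, 103 of them measured. At an unadjusted p under 0.05, 3 were higher (2.91%, against 3.33% of all genes) and 9 lower (8.74%, against 4.01% of all genes), and 0 passed over all genes in limma. Of the 9 lower ones, 4 were genes for pyruvate handling and mitochondrial exchange, 3 were regulators and 2 were glycolytic enzymes or transporters. In the first of these lists, 19 of 22 means were lower (86.4%, against 56.2% of all genes). The median difference of these 22 genes was -0.17, against -0.03 over all genes. The list's mean shift came to -0.15, -0.13 and -0.17 with SHH, and -0.03 to 0.05 in GFP livers, so here SHH 26 moved with the other SHH livers. The count of 4 (18.2% of the 22, against 4.01% of all genes) became 1 without SHH 26, where 4% of all genes were lower. It was 2 without GFP 13 (2.85% of all genes), GFP 6 (3.31%) or SHH 31 (4.22%). Without SHH 28 it was 3 (3.44% of all genes), and it stayed at 4 without GFP 21 (4.21%). This list mixes gluconeogenic, pyruvate dehydrogenase and carrier genes.

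Slc25a10, the mitochondrial dicarboxylate carrier, was 7.44, 7.22 and 7.42 in the control livers, against 6.84, 6.98 and 7.07 with SHH. The groups did not overlap (difference -0.40, SE 0.13; limma, adjusted p = 0.572). Slc25a1, the citrate carrier, was 10.07 to 10.15 in GFP livers and 9.79 to 9.84 in SHH livers, a difference of -0.30 with no overlap (adjusted p = 0.641). Pdp2, a phosphatase that reactivates pyruvate dehydrogenase and so opposes the kinases, differed by -0.42, and Pdhx, a structural subunit of the complex, by -0.31. Both had non-overlapping groups, with adjusted p = 0.625 and 0.667 in limma. Pdk3, a further kinase of the complex, was higher by 0.36, at a level below the array medians. Mpc1, which carries pyruvate into mitochondria, was lower by 0.18 without overlap.

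Among 24 further glycolytic enzymes and transporters, 14 means were higher and 10 lower (41.7% lower, against 56.2% of all genes). Slc2a5, the fructose transporter, was 5.66, 5.29 and 5.35 in the control livers, against 4.89, 5.20 and 4.72 with SHH. All SHH livers were lower (difference -0.50, 95% interval -0.87 to -0.12; limma, adjusted p = 0.576). Pgam2, the muscle form of phosphoglycerate mutase, differed by -0.41 at a level below the array medians. Of 20 further glycogen genes, 8 means were higher and 12 lower (60% lower, against 56.2% of all genes). At an unadjusted p under 0.05, 0 were called, against 3.33% of all genes upward and 4.01% downward.

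Regulators of hepatic glucose metabolism gave 12 higher and 16 lower means among 28 genes (57.1% lower, against 56.2% of all genes). Mlxipl, which encodes the carbohydrate response factor ChREBP that drives Pklr, was 9.81, 9.54 and 9.89 in the control livers, against 9.19, 9.25 and 9.56 with SHH. SHH 31 was level with GFP 21, and the difference was -0.41 (95% interval -0.76 to -0.07; limma, adjusted p = 0.622). The insulin receptor substrate gene Irs1 differed by -0.37, and by -0.13 with the mean of all its probe sets, and the transcription factor gene Foxo3 differed by -0.44. Stat3, the acute phase transcription factor, was 8.66 to 9.35 in GFP livers and 9.40 to 10.09 in SHH livers (difference 0.70, adjusted p = 0.556).

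Igfbp1 encodes an IGF-binding protein that insulin represses and that liver injury and cytokines induce, and it differed most of these regulators. It was 8.62, 6.93 and 7.77 in the control livers, against 8.51, 9.21 and 9.30 with SHH. SHH 28 and SHH 31 lay above all GFP livers, and SHH 26 just below GFP 13. The difference of 1.24 (SE 0.38, 2.35-fold, 95% interval 0.37 to 2.10) had an adjusted p of 0.552 in limma. The insulin and glucagon receptor genes Insr and Gcgr differed by 0.07 and -0.10.

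Over the 6 arrays, the members whose signals were most like that of Hk2 were Pkm (Pearson r = 0.81), Hk3 (0.80) and Ldha (0.73). Those most like Pdk2 were Pygl (0.90), Slc2a2 (0.87) and Gys2 (0.75). These are descriptions over 6 livers that share the group difference, and they carry no test.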

How the data were processed

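The deposited values are log2 signals made by the authors with RMA, per the submitters' processing notes. RMA subtracts background, forces equal distributions on the arrays and reduces each probe set to 1 value, so a shift common to all genes would be removed. For the RMA version and the annotation build, nothing is stated in the labels. The log2 scale was read from the range of 0.49 to 13.72. RNA was labelled from 500 ng per liver, per the labels.

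Platform annotation named 1 gene for 23521 of 41345 probe sets, several for 1814 and none for 16010. All 31 member symbols matched RefSeq. The SHH minus GFP difference was fitted with lmFit and eBayes (limma 3.58.1, R 4.3.3, two-sided) over all 22180 genes with Benjamini-Hochberg adjustment, no filter and no covariate. An exact permutation test of 3 against 3 mice cannot go below p = 0.1. The number of arrays limits the precision. The script was tested on simulated data.

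The members, the lists and the role groups were chosen with earlier results of these data known. Every member was accounted for. Those at an unadjusted p under 0.05 or without overlap, or otherwise the 2 of smallest p per role group, got their value in every mouse, and Hk3, Pfkfb3, Gys2, Ugp2, Pdk4, Pck1 and Fbp1 were added after their values were seen. From each list of further genes, up to 5 at an unadjusted p under 0.05 were named. Gapdh, G6pc, Gys1, Pygb, Mpc1, Insr and Gcgr were named outside this rule. The alternatives were other probe set choices, a level filter, 2 normalizations, 2 priors, array weights and each mouse left out.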

Additional observations from a re-analysis of the deposited data

How the results depend on the processing

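No member passed the threshold over all genes under any of the 14 settings. Over all genes the count stayed at 0 under the 8 processing settings and ran from 0 to 46 as each mouse was left out, with 46 without SHH 26. The count of members at an unadjusted p under 0.05 ran from 0 to 2 upward and from 0 to 5 downward with a mouse left out, 5 without SHH 26. Downward it was 0 with equal array medians (3.05% of all genes) and 2 with a trended prior (4.06%). Members whose groups did not overlap ran from 0 to 4 upward and 3 to 7 downward with a mouse left out, where smaller groups overlap less by construction (8.99% to 10.7% of all genes upward and 11.5% to 14% downward). Upward they were 2 with a second quantile normalization (6.52% of all genes) and 1 with equal array medians (6.54%). The median difference of gluconeogenic genes ran from 0.0021 to 0.14 with a mouse left out (0.14 without GFP 13), and that of glycogen genes from -0.36 to -0.14. That of the kinases ran from -0.38 to -0.24, and was -0.15 with the mean of all probe sets, which takes in the dim second probe set of Pdk1.

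Signs turned for Pgd (-0.0275 with array weights, and -0.0309 to 0.0535 with a mouse left out), Pck1 (-0.046 to 0.12), Pfkfb3 (-0.98 to 0.30), Hk3 (-0.0392 to 0.45) and Pdk4 (-0.13 to 0.43), each with a mouse left out. The other 28 genes recomputed kept their direction, but Pgam2 and Pdk3 dropped out under the level filter. The near-0 medians of glucose entry (-0.10 to 0.07) and glycolysis (-0.03 to 0.05) also changed sign with a mouse left out, and the first was -0.029 with the mean of all probe sets. No paired analysis was possible because the 2 groups have no mouse number in common.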

Other observations

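GFP 21 stood apart from the other controls for a few genes that respond to feeding, hormones or the hour of day, picked here after their values were seen. Besides Pfkfb3, the lipogenic factor Srebf1 was 6.80 in GFP 21 against 8.27 and 8.05 in GFP mice 13 and 6, and 7.46 to 8.14 in SHH livers. Txnip, a glucose-responsive gene that restrains glucose uptake, was 8.52 in GFP 21 against 10.06 and 9.74, and 8.54 to 8.95 in SHH livers. For Pfkfb3 and Srebf1 the SHH livers lay between the extremes of the controls, and for Txnip they lay near GFP 21. SHH minus GFP differences were 0.03 for Srebf1 and -0.64 for Txnip (95% interval -1.42 to 0.14). For other genes of this kind, also picked after their values were seen, GFP 13 was the control that stood apart. Pck1 was 12.30 in GFP 13 against 11.97 in both GFP 21 and GFP 6, and G6pc 11.32 against 10.70 and 10.84. Sik1, from the list of regulators, was 7.69 in GFP 13 against 6.40 and 6.60.

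SHH 31 held the lowest value of 10 of the 31 members and the highest of 6, and SHH 26 the lowest of 2 and the highest of 3.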
